A study of Drosophila melanogaster with 46 samples.

Results

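The genes described here are the 290 tRNA genes on the fruit fly chromosome arms 2L, 2R, 3L, 3R and X, taken by their tRNA biotype from a RefSeq table of 17684 genes on 6 arms; the small chromosome 4 has none. They are 71 to 186 bp long with a median of 73 bp, and their names carry 22 amino acid labels, with initiator methionine and selenocysteine counted apart. A gene was called bound, or near a peak, when a deposited peak lay within 500 bp of its span. By that rule 71 of the 290 genes (24.5%, exact 95% interval 19.6% to 29.8%) were near a peak of at least 1 of 7 lists, and 219 were near none. Of all 73 bp windows that tile the 6 arms, chromosome 4 included, 10.9% were near a peak of any list. So were 17.7% of the 928 other genes of at most 300 bp. Of equally short windows at the ends of protein-coding genes, 25.6% were. The interval covers counting error only, and since neighbouring genes share peaks it is too narrow: the 71 genes lie in 47 of 159 clusters, where genes at most 2000 bp apart were joined.

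The peaks come from chromatin immunoprecipitation sequencing of whole Drosophila melanogaster of the strain y1w1118. Of the 46 samples in 15 groups, the wild type, with the genotype label dCTCFwt, has 4 larval samples for CTCF and 4 for CP190. Larvae and adults have 2 wild-type samples each for Pita and for Su(Hw), and adults 2 for CTCF. CTCF was precipitated by its HA tag. The further groups are larvae labelled dCTCFdeltaCP, alone or joined to SuHwdelta114, PitadeltaCP1 or both, and of the lists used here only that of CP190 may hold peaks from them. The protocol describes chromatin of third-instar larvae only, although 6 samples are labelled adult, and it names a rat antibody for CP190, where the labels of wild-type CP190 samples give rabbit. No age in days is given. The CP190 list names no genotype, and 14 of 18 samples for this protein come from mutants, so it may mix up to 5 genotypes. Each list is laid out as a comparison of 2 inputs that are not tied to samples. A peak therefore has 1 value and no replicate error, no test between groups was possible, and the read depth is unknown. In whole animals, a protein bound in few cells and a protein bound weakly in many cells cannot be told apart.

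Transfer RNA genes are transcribed by RNA polymerase III from promoters inside the gene, the A box and the B box, which the factor TFIIIC binds before it places TFIIIB upstream of the start. In yeast and in human cells, tRNA genes and TFIIIC are known to act as chromatin boundaries and insulators. CTCF, Pita and Su(Hw) are Drosophila insulator proteins that bind DNA through C2H2 zinc fingers, and CP190 is a BTB-domain cofactor found with them and at many promoters. Each list gives, per peak, the authors' fold enrichment over a control that is not named, and all folds below are that linear ratio. Folds are ranked only within a list.

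CP190 and Pita were near tRNA genes at about 3 times the share of all windows, which is about their share at ends of protein-coding genes. Su(Hw) was near them at close to the share of windows. Larval CP190 was near 53 genes in 34 clusters, which is 18.3% of the genes (exact 95% interval 14.0% to 23.2%), beside 5.86% of windows and 12.8% of other short genes. Larval Pita was near 17 genes in 11 clusters (5.86%, 3.45% to 9.22%), beside 1.91% of windows and 3.99% of other short genes. Adult Pita was near 20 genes in 12 clusters (6.90%, 4.26% to 10.4%), beside 1.90% of windows and 2.91% of other short genes. For these 3 lists the ratio of the tRNA share to the window share was 3.12, 3.07 and 3.62, and the window share lay below the interval. For CP190 and adult Pita the share of other short genes also lay below it, and for larval Pita it lay within. Genes of a cluster share peaks, so these intervals are too narrow, and the short gene shares have counting error of their own. For CP190 the short gene share of 12.8% lay close to the lower bound of 14.0%. A difference between tRNA genes and other short genes is therefore not shown. Equally short windows at the ends of protein-coding genes were near CP190 in 20.8% of cases. They were near larval Pita in 5.96% and near adult Pita in 6.15%, and all of these shares lay within the interval of the tRNA genes.

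CTCF peaks were near few tRNA genes. The larval list was near 7 genes in 5 clusters (2.41%, exact 95% interval 0.976% to 4.91%), beside 1.25% of windows and 2.26% of other short genes. The adult list was near 6 genes in 4 clusters (2.07%, 0.763% to 4.45%), beside 0.903% of windows and 2.37% of other short genes. Su(Hw) was near 17 genes in 15 clusters in larvae (5.86%, 3.45% to 9.22%), beside 4.74% of windows and 4.63% of other short genes. In adults it was near 16 genes in 14 clusters (5.52%, 3.19% to 8.80%), beside 4.16% of windows and 4.31% of other short genes. The Su(Hw) ratios to windows were 1.24 and 1.33, and in both Su(Hw) lists and both CTCF lists the window share and the short gene share lay inside the interval. The plot of shares by list sets these values side by side.

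**Figure D1:**
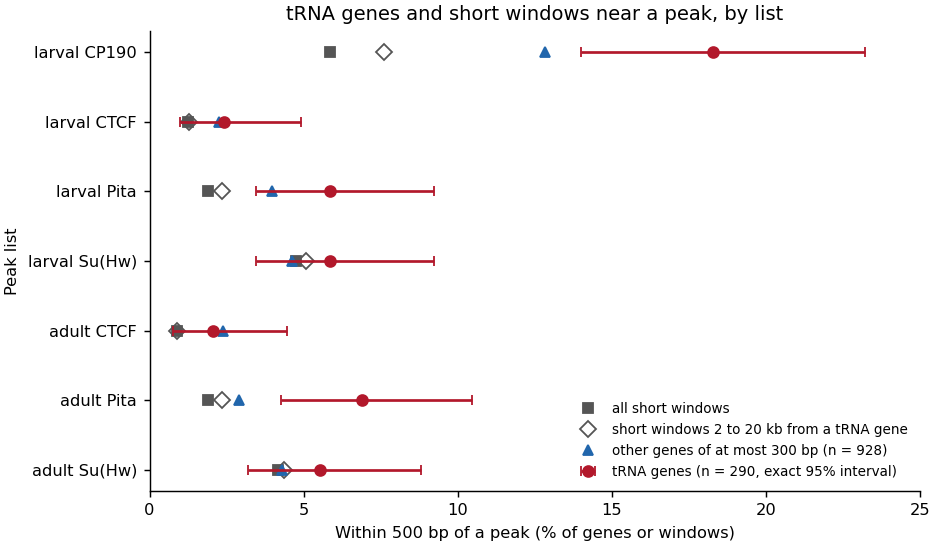
Percent of tRNA genes within 500 bp of a peak in each list (red points, bars are exact 95% intervals for counting error, n = 290), with the percent of all 73 bp windows (grey squares), of windows 2 to 20 kb from a tRNA gene (open diamonds) and of other genes of at most 300 bp (blue triangles). Larval CP190 at 18.3% lies far to the right of its window share of 5.86%, both Pita points lie to the right of their windows, and both Su(Hw) points lie close to theirs.

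Part of the difference went with the neighbourhood of tRNA genes. Windows 2 to 20 kb from a tRNA gene, a comparison chosen after seeing the data, were near CP190 in 7.59% of cases, so that the ratio for tRNA genes came to 2.41. The ratios to these local windows were 2.49 for larval Pita, 2.93 for adult Pita, 1.88 for larval CTCF, 2.34 for adult CTCF, 1.16 for larval Su(Hw) and 1.26 for adult Su(Hw). The CP190 ratio was largest at the genes themselves. A CP190 peak overlapped 36 genes (12.4%) against 2.77% of windows, a ratio of 4.48, and with larger distances the ratio fell to 2.43 within 1000 bp and 1.39 within 5000 bp. Within 5000 bp the share was 38.3% for tRNA genes and 37.2% for local windows. Larval CTCF had another profile, with a ratio of 1.93 within 500 bp and 2.85 within 1500 bp, where 20 genes in 8 clusters had a peak. Larval Su(Hw) stayed between 0.95 and 1.34 at every distance.

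**Figure D2:**
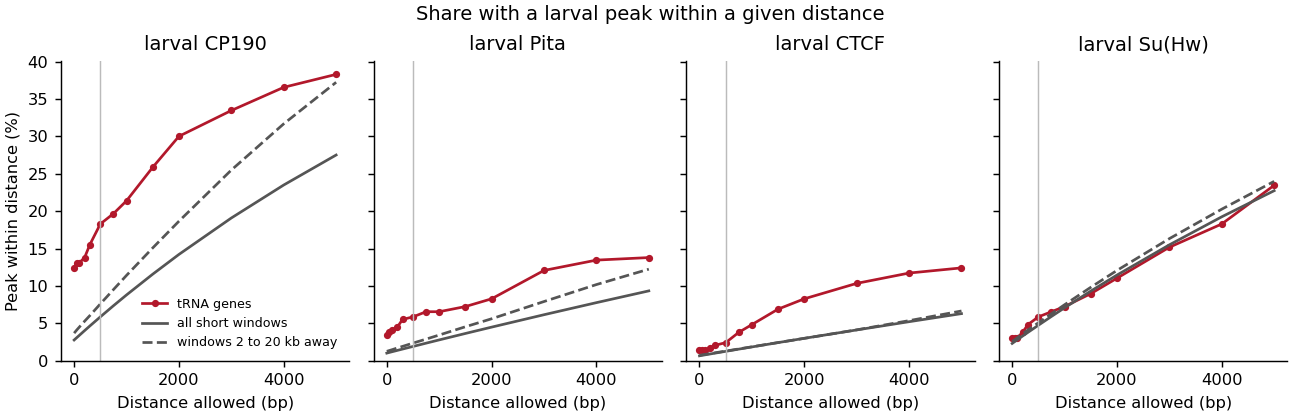
Percent of tRNA genes (red, n = 290), of all 73 bp windows (solid grey) and of windows 2 to 20 kb from a tRNA gene (dashed grey) with a larval peak within the distance on the x axis, in bp, for 4 proteins; the vertical line marks 500 bp. The tRNA curve for CP190 starts at 12.4% and meets the dashed curve near 5000 bp, and the 3 curves for Su(Hw) lie together.

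Insulator proteins bind at many promoters, and tRNA genes lie closer to protein-coding genes than windows do. An end of a protein-coding gene lay within 1000 bp of 104 tRNA genes (35.9%) against 25.2% of windows. Of these 104 genes, 32 (30.8%, exact 95% interval 22.1% to 40.6%) were near CP190, against 17.4% of windows at such ends. Of the 186 genes farther away, 21 (11.3%, 7.13% to 16.7%) were near CP190, against 1.98% of windows. The ratio to windows was thus 1.77 beside protein-coding ends and 5.69 away from them. Larval Pita was near 14 of the 104 genes (13.5%, 7.56% to 21.6%) against 5.25% of windows, a ratio of 2.56, and near 3 of the 186 genes (1.61%, 0.334% to 4.64%) against 0.784% of windows, a ratio of 2.06. Adult Pita was near 16 of the 104 (15.4% against 5.15% of windows) and 4 of the 186 (2.15% against 0.812%). For Pita, tRNA genes and windows alike thus had the higher share beside such ends. Larval Su(Hw) was near 7 of the 104 genes (6.73% against 5.24% of windows) and 10 of the 186 (5.38% against 4.58%), close to the window shares in both. Inside the span of a protein-coding gene lay 134 tRNA genes, of which 19 (14.2%) were near CP190, and of the 156 between genes 34 (21.8%) were. The gene table gives no strand and no exons, so starts and ends, or introns and exons, could not be told apart.

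The CP190 peaks with the highest fold at tRNA genes also carried a C2H2 protein. The highest, 61.98-fold, lay at chr2L:14010928-14012324, 292 bp from tRNA:Gln-CTG-4-1, a glutamine gene. At that gene the larval Pita peak had 9.258-fold and the adult Pita peak 10.14-fold, and CTCF and Su(Hw) had no peak within 500 bp. The second, 53.96-fold at chr3R:16431285-16432442, covered tRNA:Thr-AGT-1-4, a threonine gene in the span of CG31279, with its summit 99 bp from the gene. This threonine gene also carried larval CTCF of 119.7-fold and adult CTCF of 153.3-fold, and was the only tRNA gene near both CP190 and CTCF. The third, 45.49-fold at chr3R:18628308-18629211, covered the proline gene tRNA:Pro-TGG-1-5 in the span of qin, a gene of the piRNA pathway. Su(Hw) reached 24.55-fold there in larvae and 31.98-fold in adults.

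Of the 17 tRNA genes near larval Pita, 15 were also near CP190. The highest covered tRNA:Pro-CGG-2-3, a proline gene 85 bp from an end of not, which encodes a histone deubiquitinase. Pita reached 42.2-fold there in larvae, at chr3L:18617629-18618572, and 75.66-fold in adults. CP190 had 8.173-fold. The next 2 larval peaks, of 28.83-fold and 26.63-fold, lay at the serine genes tRNA:Ser-TGA-1-1 and tRNA:Ser-TGA-2-1 near Fib, the gene of the nucleolar protein fibrillarin. The adult Pita peak over the pair had 47.13-fold, and CP190 5.938-fold. The second of these larval peaks was near tRNA:Ser-TGA-2-1 only, and its summit lay 2130 bp away. The third adult peak lay over the phenylalanine gene tRNA:Phe-GAA-1-2, 233 bp from an end of the ribosomal protein gene RpL17 on X, with larval Pita of 21.86-fold, adult Pita of 45.77-fold and CP190 of 31.61-fold. On 2L a cluster of 4 glutamine genes, tRNA:Gln-CTG-2-2, tRNA:Gln-CTG-2-3, tRNA:Gln-CTG-2-4 and tRNA:Gln-CTG-3-1, spanned 1786 bp at an end of CG4238, with the last 2 inside its span. A single CP190 peak of 26.52-fold covered all 4 genes, with Pita of 17.37-fold at the larval and 41.4-fold at the adult stage.

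CTCF at tRNA genes rarely came with CP190 within 500 bp of the gene. The highest larval peak, 156.2-fold at chr3R:17615092-17617838, ranked 15 of 808 and covered the valine gene tRNA:Val-CAC-1-1, with the proline gene tRNA:Pro-TGG-1-1 272 bp away. The adult CTCF peak there had 152.7-fold. Pita was also near tRNA:Val-CAC-1-1, at 3.986-fold in larvae and at 6.95-fold in adults, while the nearest CP190 peak lay 11354 bp from the cluster. Farther out, the same larval CTCF peak overlapped Su(Hw) peaks of 8.889-fold in larvae and 17.11-fold in adults. The third larval peak, 56.34-fold, lay 182 bp from tRNA:Asn-GTT-1-1 in the span of EcR, the ecdysone receptor gene, and overlapped a CP190 peak of 13.05-fold and an adult CTCF peak of 8.976-fold that both lay more than 500 bp from the gene. A pair of lower sites was shared between stages. The glutamate genes tRNA:Glu-TTC-1-5 and tRNA:Glu-TTC-1-6 had 6.92-fold in larvae and 7.763-fold in adults, the third highest adult value, and the histidine gene tRNA:His-GTG-1-3 had 5.01-fold and 2.816-fold.

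Su(Hw) peaks lay at tRNA genes that stood alone or in pairs. The highest, 36.85-fold in larvae at chr3R:8862060-8863976, lay at the arginine genes tRNA:Arg-TCG-2-3 and tRNA:Arg-TCG-2-4 in the span of pyd, the fly homologue of the tight junction protein ZO-1. The adult peak had 52.67-fold and was near the second of them only, as was CP190 with 35.47-fold. The site in qin at tRNA:Pro-TGG-1-5, given above, came next at both stages. The third larval peak, 23.23-fold, covered tRNA:Pro-CGG-2-1 in Bx, a LIM-only gene on X, with 17.46-fold in adults and CP190 of 21.15-fold. The third adult peak, 28.74-fold, covered the cysteine gene tRNA:Cys-GCA-2-1 in the homeobox gene Dbx, with 13.91-fold in larvae and CP190 of 13.96-fold. Of the 126 tRNA genes in clusters of 3 or more, 0 were near Su(Hw) at either stage (exact 95% upper bound 2.88%). The closest peaks lay 2018 bp away in larvae and 2147 bp in adults. These genes form only 32 clusters and genes of a cluster share peaks, so the bound over genes is too low. A lower share than in local windows is therefore not shown. Of the 164 genes in clusters of 1 or 2, 17 (10.4%, 6.16% to 16.1%) were near it in larvae and 16 (9.76%) in adults. Local windows around the larger clusters had a larval Su(Hw) peak in 3.03% of cases and around the smaller ones in 5.38%. This split was chosen after its values were seen.

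**Figure D3:**
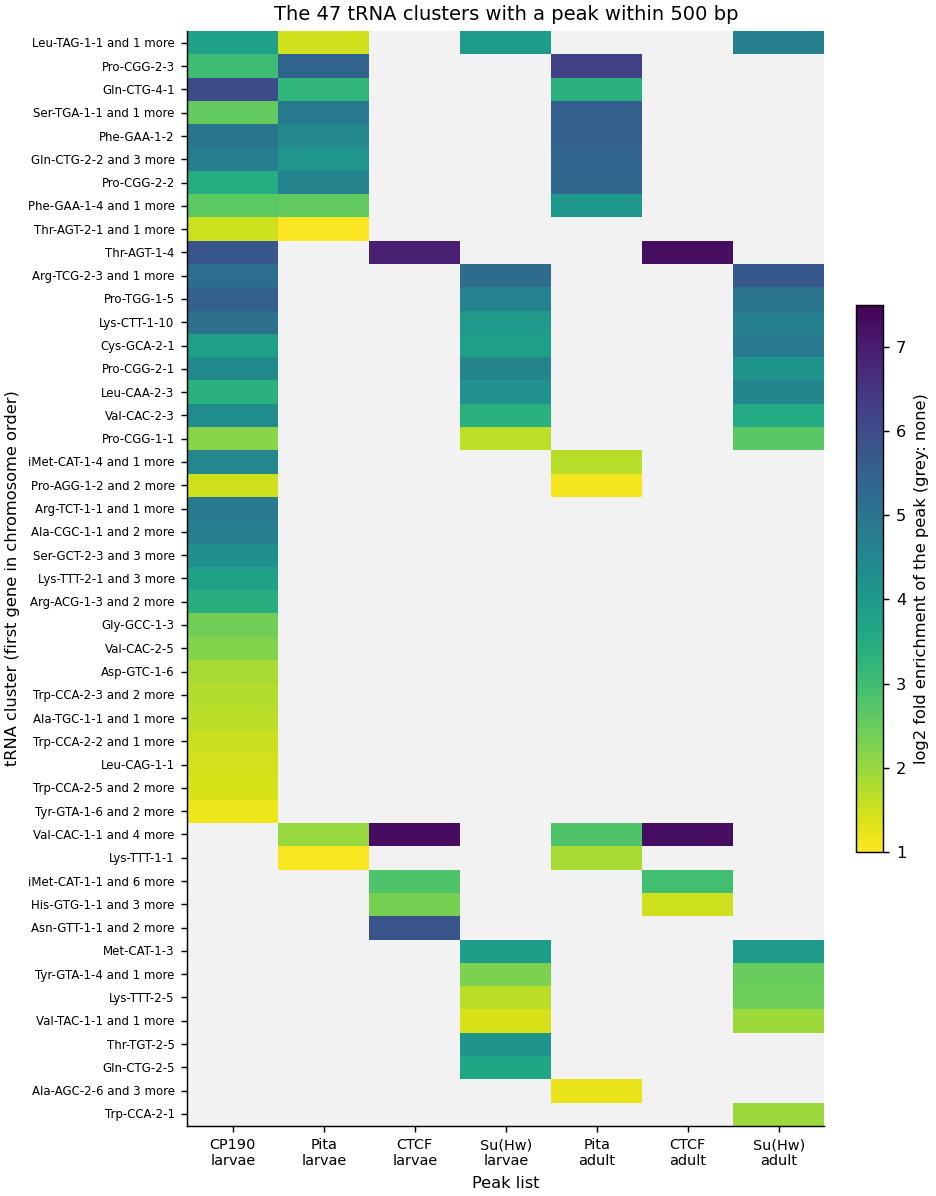
The 47 tRNA clusters with a peak within 500 bp of at least 1 gene (rows, labelled by their first gene in chromosome order) in the 7 lists (columns), coloured by the log2 of the highest fold enrichment near the cluster; grey marks no peak within 500 bp. Rows with both CP190 and Pita or CP190 and Su(Hw) stand at the top, CP190 rows without a larval C2H2 peak in the middle, and C2H2 rows without CP190 at the bottom.

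CP190 at tRNA genes was split about evenly between sites with and without a larval C2H2 peak, as it was at windows. Of the tRNA genes near CP190, 45.3% were near a larval C2H2 peak, beside 51.9% of the windows near CP190. Of the 39 tRNA genes near any larval C2H2 peak, 24 (61.5%, exact 95% interval 44.6% to 76.6%) were near CP190, against 41.5% of windows near such a peak. By protein this was 15 of 17 genes near Pita (88.2%, 63.6% to 98.5%, windows 63.3%), 9 of 17 near Su(Hw) (52.9%, 27.8% to 77.0%, windows 33.4%) and 1 of 7 near CTCF (14.3%, 0.361% to 57.9%, windows 54.0%). The 7 CTCF genes form 5 clusters, so this share rests on few sites. The other 29 genes near CP190, in 17 clusters, had no larval C2H2 peak within 500 bp. They are 11.6% of the 251 genes without one (7.88% to 16.2%), against 3.04% of windows without one. Of the 29 genes, 5 were near an adult C2H2 peak, and 16 lay within 1000 bp of an end of a protein-coding gene. Of all tRNA genes 35.9% lay that close to such an end, and no matching window shares were computed for these counts. No tRNA gene was near all 3 larval C2H2 proteins, and 2 were near a pair of them: tRNA:Val-CAC-1-1 with CTCF and Pita, and the leucine gene tRNA:Leu-TAG-1-2 with Pita of 2.761-fold and Su(Hw) of 15.14-fold. None was near 5 or more lists; these 2 genes were near 4 lists each, 21 genes near 3, 17 near 2 and 31 near 1.

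Among the CP190 peaks at tRNA genes, 18 overlapped a larval C2H2 peak and had a median fold of 17.0 (quartiles 8.68 and 33.7), where all 2208 CP190 peaks of that kind had 9.50. The 16 that overlapped none had a median of 4.14 (quartiles 2.85 and 15.0), where all 2012 peaks of that kind had 3.59. The highest of these 16 were chosen for naming after their values were seen. They were the peak of 27.62-fold at tRNA:Arg-TCT-1-1 and tRNA:Met-CAT-1-1, that of 26.33-fold over 3 alanine genes, tRNA:Ala-CGC-1-1 to tRNA:Ala-CGC-1-3, in gol, a ubiquitin ligase gene, and that of 22.62-fold over the initiator genes tRNA:iMet-CAT-1-4 and tRNA:iMet-CAT-1-5. Next was a peak of 18.92-fold at 4 serine genes, tRNA:Ser-GCT-2-3, tRNA:Ser-GCT-2-4, tRNA:Ser-GCT-1-1 and tRNA:Ser-GCT-2-5, with its summit 99 bp from the nearest of them and 3369 bp from any protein-coding end. At the initiator genes adult Pita had 3.261-fold, with its summit inside tRNA:iMet-CAT-1-5.

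Most tRNA genes near a protein at 1 stage were near it at the other, and so were most windows. CTCF was near 7 genes in larvae and 6 in adults, with 6 in both, which is 85.7% of the larval genes against 61.0% of windows, and 100% of the adult genes against 84.6% of windows. Pita was near 17 and 20, with 14 in both, so that 82.4% of the larval genes were also near an adult peak, against 71.2% of windows near larval Pita, and 70% of the adult genes near a larval peak against 71.3% of windows. Su(Hw) was near 17 and 16, with 14 in both, and 82.4% of its larval genes were near an adult peak against 79.4% of windows, and 87.5% of its adult genes near a larval peak against 90.4%. The genes near Pita in larvae only were tRNA:Thr-AGT-2-1 and tRNA:Thr-AGT-1-2 at 2.06-fold and tRNA:Leu-TAG-1-2 at 2.761-fold. Those near Pita in adults only were tRNA:Pro-AGG-1-2 and tRNA:Pro-AGG-1-3 at 2.181-fold, tRNA:iMet-CAT-1-4 and tRNA:iMet-CAT-1-5 at 3.261-fold, and tRNA:Ala-AGC-2-7 and tRNA:Ala-AGC-2-8 at 2.317-fold. All of these stage-restricted Pita peaks lay below the median fold of their list, which was 5.97 in larvae and 7.15 in adults. For Su(Hw), tRNA:Thr-TGT-2-5 with 17.54-fold and tRNA:Gln-CTG-2-5 with 12.75-fold were near a larval peak only, together with tRNA:Arg-TCG-2-3. All of the 15 larval Su(Hw) peaks at tRNA genes overlapped an adult peak, but at these 3 genes the adult peak lay more than 500 bp away. In adults only, Su(Hw) was near tRNA:Leu-TAG-1-1 and tRNA:Trp-CCA-2-1. The adult peak near tRNA:Leu-TAG-1-1 overlapped a larval Su(Hw) peak of 15.14-fold, which lay 519 bp from that gene, just outside the limit. CP190 has no adult list.

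Bound genes were spread over most amino acids. Among the labels with at least 8 genes, glutamine with 6 of 12 genes and tryptophan with 4 of 8 had the highest share near any list, 50% each (exact 95% intervals 21.1% to 78.9% and 15.7% to 84.3%), and proline followed with 8 of 17 (47.1%). Isoleucine had the lowest, with 0 of 11 genes in 6 clusters, which allows a share of up to 28.5%. The glutamine genes came from 3 clusters and all 6 carry the anticodon CTG, of which there are 8 genes. The 4 bound tryptophan genes lay in 4 clusters, and their peaks were low. CP190 had 2.887-fold near tRNA:Trp-CCA-2-2, 3.382-fold near tRNA:Trp-CCA-2-3 and 2.624-fold near tRNA:Trp-CCA-2-6, and adult Su(Hw) had 3.926-fold near tRNA:Trp-CCA-2-1. None of these peaks overlapped its tryptophan gene, and the gaps were 47, 203, 344 and 224 bp in that order. The 3 CP190 summits lay 330, 457 and 574 bp from the tryptophan genes, and 43, 61 and 1 bp from a protein-coding end. Proline genes came from 7 clusters. Of the 5 genes with anticodon CGG, each in a cluster of its own, 4 (80%, 28.4% to 99.5%) were near CP190, 2 of them with Pita and 2 with Su(Hw). The intervals of all 22 labels overlap with each other, and the labels were not tested against each other.

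**Figure D4:**
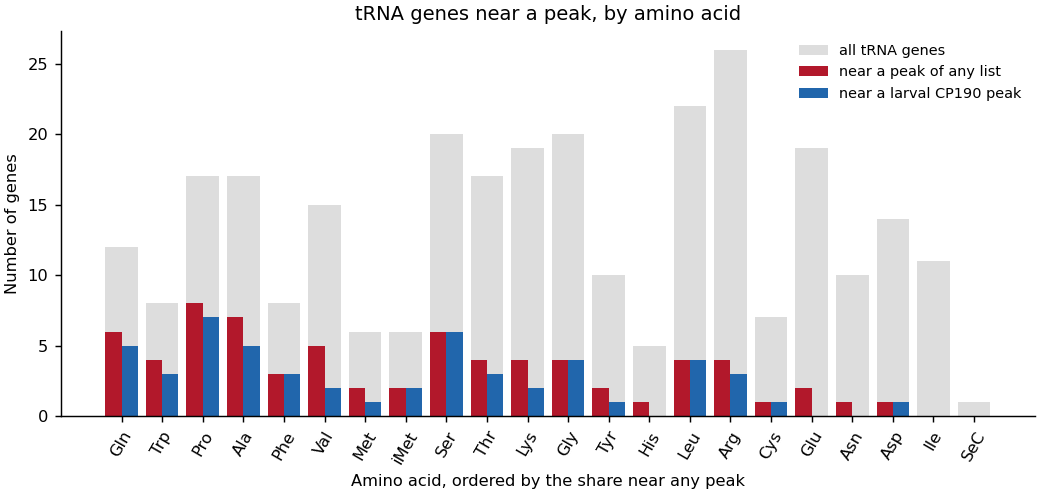
Number of tRNA genes per amino acid label (grey bars), with the number near a peak of any list (red) and near a larval CP190 peak (blue), ordered by the share near any peak. Glutamine (6 of 12) and tryptophan (4 of 8) stand at the left, and isoleucine (0 of 11) and the single selenocysteine gene at the right have none.

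The largest clusters had no CP190 within 500 bp, while clusters as a whole were near some list more often the more genes they held. Of the 159 clusters, 90 hold 1 gene and the largest hold 7. The 7 clusters with 5 or more genes hold 43 genes, of which 0 were near CP190, and 2 of these 7 clusters were near any list. Of all windows 5.86% were near CP190, and of local windows around clusters of 3 or more genes 6.84% were. With only 7 clusters and no interval computed for them, a lower CP190 share than in windows is not shown. A peak of any list was near 24.4% of single genes, 29.7% of clusters of 2, 41.2% of clusters of 3 and 46.7% of clusters of 4 or more, and a cluster with more genes has more chances to be near one. Over genes these shares were 24.4%, 28.4%, 23.5% and 21.3%. Larval CTCF was near 6 of the 126 genes in clusters of 3 or more (4.76%, exact 95% interval 1.77% to 10.1%) and 1 of the 164 in smaller ones (0.610%, 0.0154% to 3.35%), where local windows had 1.80% and 1.10%. The 6 genes lie in 1 cluster of 3 and 3 larger clusters, so the interval over genes is too narrow. The 7-gene cluster of isoleucine and leucine genes in the span of ATP8A on 2R, from tRNA:Ile-AAT-1-3 to tRNA:Leu-CAA-1-1, lay 17216 bp from the nearest CP190 peak and 4233 bp from the nearest larval Su(Hw) peak. The 7-gene cluster of arginine and serine genes on X, from tRNA:Arg-TCG-2-1 to tRNA:Arg-TCG-3-4, lay 18309 bp from CP190. The third cluster of 7, with initiator methionine and glutamate genes on 2R, carried the lower CTCF site described above. The 6-gene clusters at Cht7, a chitinase gene, and near grn, a GATA factor gene, were near no list, and CP190 lay 4768 bp and 11050 bp away. A 5-gene cluster in EcR, from tRNA:Arg-ACG-1-2 to tRNA:Lys-CTT-1-2, was near no list, and the other one on 3R is that of the 156.2-fold CTCF peak. By cluster size, CP190 was near 17.8% of single genes, 23.0% of genes in pairs, 21.6% in clusters of 3 and 12.0% in clusters of 4 or more.

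Peaks at tRNA genes tended to be the higher ones of their list for CP190, larval Pita and Su(Hw), and less clearly for adult Pita and CTCF. Above the median of the list lay 23 of 34 CP190, 8 of 12 larval Pita, 11 of 15 larval Su(Hw) and 9 of 14 adult Su(Hw) peaks. For adult Pita it was 7 of 12, for larval CTCF 3 of 5 and for adult CTCF 2 of 4. The 34 CP190 peaks had a median fold of 10.98 (quartiles 3.82 and 25.4) against 5.02 in the whole list, and 16 of them (47.1%) lay above the third quartile of the list. The medians were 13.3 for the 12 larval Pita peaks against 5.97, 14.5 for the 15 larval Su(Hw) peaks against 6.81, and 56.3 for the 5 larval CTCF peaks against 7.95. In adults they were 13.3 for the 12 Pita peaks against 7.15, 16.2 for the 14 Su(Hw) peaks against 9.38, and 80.2 for the 4 CTCF peaks against 12.5. The 4 adult CTCF peaks had 2.816-fold, 7.763-fold, 152.7-fold and 153.3-fold. Their median is thus a midpoint across a wide gap, and only 2 of them lay above the median of the list. With no protein-coding end within 500 bp, the 3 larval Pita peaks had a median of 3.99 against 4.28 for all such peaks. The 4 adult Pita peaks had 5.28 against 4.29, and the 11 CP190 peaks 13.96 against 5.09. With such an end, the 9 larval Pita peaks had 21.9 against 7.45. The 8 adult Pita peaks then had 41.3 against 10.2, and the 23 CP190 peaks 10.2 against 4.99. Long peaks reach more genes, and the CP190 peaks at tRNA genes had a median length of 884 bp against 720 bp. Counted over pairs of a peak and a gene or window within 500 bp, a comparison chosen after seeing the data, the medians were 13.7 at tRNA genes and 5.80 at windows for CP190, and 56.3 and 21.7 for larval CTCF. Over the 7 lists this ratio ran from 1.59 for adult Su(Hw) to 3.60 for adult CTCF, where 6 pairs straddle the same gap. The tRNA peaks also covered the low end: the lowest had 2.26-fold for CP190, 2.06-fold for larval Pita and 2.64-fold for larval Su(Hw).

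**Figure D5:**
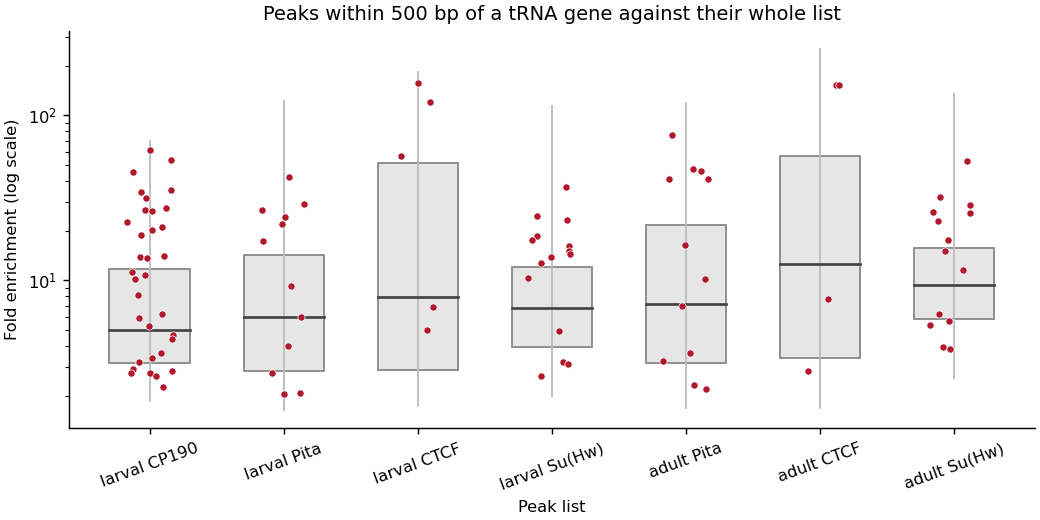
Fold enrichment on a log scale of each peak within 500 bp of a tRNA gene (red points) in the 7 lists, over the whole list (grey box from the first to the third quartile, dark line at the median, thin line from the lowest to the highest peak); the sideways spread of points has no meaning. In each list the points run from low values to the upper range, and 16 of the 34 CP190 points lie above the box.

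Few summits lay inside a tRNA gene, which is short beside a peak, and some lay closer to a protein-coding end. Of the 34 CP190 peaks 26 overlapped a tRNA gene and 0 had their summit inside one, and the median distance from summit to gene was 194.5 bp. With a median length of 73 bp for the genes and 884 bp for these peaks, few summits can fall inside a gene. No share of windows was computed to set beside the 0. The median was 228.5 bp for larval Pita and 400 bp for larval Su(Hw). From the summit to the nearest protein-coding end, the median was 468 bp for CP190, 189.5 bp for larval Pita and 2073 bp for larval Su(Hw). The summit was closer to a tRNA gene than to such an end at 24 of 34 CP190 peaks. This held for 7 of 12 larval Pita peaks and 14 of 15 larval Su(Hw) peaks. These peaks were chosen for lying near a tRNA gene, so the distances are a description only. Only adult Pita had summits inside tRNA genes, at 2 of 12 peaks, those at tRNA:iMet-CAT-1-5 and at tRNA:Pro-AGG-1-2. At the 500 bp limit, the farthest gene called near CP190 was tRNA:Gly-GCC-1-12 at 496 bp and the closest outside was tRNA:Pro-AGG-1-4 at 626 bp. For larval CTCF these were tRNA:Glu-TTC-1-6 at 369 bp and tRNA:Trp-CCA-2-1 at 523 bp, and for larval Su(Hw) tRNA:Lys-CTT-1-10 at 470 bp and tRNA:Leu-TAG-1-1 at 519 bp.

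Near-identical copies limit what a peak at a tRNA gene shows, since the sources used here do not say how reads that match several copies were placed. By the copy number in the gene names, which group genes of identical mature tRNA, CP190 was near 11 of 38 single-copy genes (28.9%), 10 of 63 genes with 2 to 4 copies (15.9%) and 32 of 189 with 5 or more (16.9%). Larval Pita was near 7 (18.4%), 3 (4.76%) and 7 (3.70%) of them. The other proteins had other orders: larval Su(Hw) was near 2 (5.26%), 7 (11.1%) and 8 (4.23%), and larval CTCF near 1, 0 and 6. In adults Pita was near 6, 2 and 12 of these genes, Su(Hw) near 2, 7 and 7, and CTCF near 1, 0 and 5. The part of read placement in these shares was not tested. By arm, the share near any list was 29.3% of 41 genes on 2L, 26.5% of 98 on 2R, 16.7% of 48 on 3L, 27.8% of 79 on 3R and 12.5% of 24 on X, while windows ranged from 10.3% to 11.5% on these arms.

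Other genes of the same polymerase were few and differed among themselves. None of the 96 genes of 5S rRNA in the table, which lie in 1 array on 2R, was near any list. The array begins beside the initiator methionine and glutamate cluster, and its first gene lay 1950 bp from the larval CTCF peak there. Of 8 other RNA genes transcribed by RNA polymerase III, 4 (50%) were near CP190, beside 12.8% of the 928 short genes that are not tRNA genes. Of these 4 genes 3 share 1 peak, so the share rests on few sites. The 3 neighbouring U6 spliceosomal RNA genes, snRNA:U6:96Aa, snRNA:U6:96Ab and snRNA:U6:96Ac, shared a CP190 peak of 20.97-fold and a larval CTCF peak of 51.92-fold, and the latter 2 had an adult CTCF peak of 31.85-fold. The signal recognition particle RNA gene 7SLRNA:CR42652 lay 140 bp from a CP190 peak of 13.7-fold, the same peak that covers tRNA:Lys-TTT-2-1 near the Hox gene Scr. No peak was near 7SLRNA:CR32864, RNaseP:RNA, RNaseMRP:RNA or snRNA:U6atac. Of 16 protein genes of the polymerase and its factors, 6 (37.5%) had a peak within 500 bp of an end, beside 42.2% of all 13922 protein-coding genes. For CP190 these were Bdp1, a TFIIIB subunit, with 3.63-fold, La, an RNA chaperone, with 2.455-fold, and the polymerase subunit genes Polr3K, Polr3D and Polr3F with 3.007-fold, 3.224-fold and 3.086-fold. Larval Su(Hw) was near Maf1, the repressor of the polymerase, with 2.131-fold and near Bdp1 with 3.435-fold. Adult Pita was near Bdp1 with 2.421-fold and near La with 2.439-fold. All of these folds lay below the median of their list.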

How the data were processed

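Per the submitters' processing notes the build was dm6 and the tools were MACS2, Bowtie2, cutadapt, Picard, deepTools and bedtools, with roles and versions not given in the sources used here. The authors' deposited lists give per peak a fold enrichment, which is a linear ratio, a −log10 q-value used for 1 alternative, a summit offset and a global irreproducible discovery rate (IDR). Genes came from a RefSeq table on Release 6 plus ISO1 MT, the assembly also called dm6. Gaps, counts, shares and exact Clopper-Pearson 95% intervals, which cover counting error only, were computed with Python 3.11.15, pandas 2.3.3, numpy 2.4.6 and scipy 1.17.1, and the overlap code was tested on simulated peaks. Windows tile the 6 arms, chromosome 4 included, up to the end of the last gene of each, and exclude tRNA genes, 1829040 in all. No test was run, since a list has no replicate values.

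The members, lists and comparisons were chosen with earlier results of these data known. Named are the 3 highest peaks per list at tRNA genes, genes near 5 or more lists or near all larval C2H2 proteins, the 6 largest clusters with ties, the amino acids with the highest and lowest share among those with at least 8 genes, and the other genes of RNA polymerase III, of which 13 of 14 fixed symbols were found. Other genes were named after their values were seen. Since no sequence was used, a planned search for the A box, the B box and parts of C2H2 sites was not run.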

Additional observations from a re-analysis of the deposited data

How the results depend on the processing

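Of 196 recomputed values, 175 stayed within the interval, or within 1.5 times for ratios, and 21 moved; 0 turned direction, and no ratio of tRNA genes to windows moved. With peaks that overlap the gene, the share of tRNA genes fell to 12.41% for larval CP190, 3.448% for larval Pita, 3.103% for larval Su(Hw), 3.448% for adult Pita and 2.759% for adult Su(Hw), and CP190 was at 77.78% of genes with larval Su(Hw). Within 200 bp larval CP190 was near 13.79%. With summits within 500 bp, larval CP190 was near 11.38% and larval Su(Hw) near 3.103%, and 100% of the larval CTCF genes and 100% of the larval Su(Hw) genes were also near an adult peak. With only peaks whose −log10 q reached their list's median, the shares were 12.41% for larval CP190, 3.448% for larval Pita and 4.138% for adult Pita, CP190 was at 100% of genes with larval Pita, and 100% of these were near adult Pita. Stricter rules call fewer genes by construction. Counted by cluster, larval Su(Hw) came to 9.434%. The median fold of tRNA peaks over that of the list was 12.22 for adult CTCF (3 peaks) and 4.048 for adult Pita (8 peaks) among peaks over a gene. Over pairs, chosen after seeing the data, it was 2.592 for larval and 3.599 for adult CTCF. A limit of 1000 bp, an IDR of at most 0.01, autosome arms, arm-weighted or local windows (the latter chosen after seeing the data) and clusters joined at 1000 or 5000 bp moved none. No paired analysis was possible because the lists hold no values per sample, and for the same reason no replicate could be left out. Depth is unknown, so a gene near no peak is not shown to be unbound.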

Other observations

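The adult Pita list holds 1 peak on the mitochondrial genome, at bases 3 to 1531, with 9.419-fold enrichment. It lay within 500 bp of 6 of the 22 mitochondrial tRNA genes, trnI, trnQ, trnM, trnW, trnC and trnY. These genes are not among the 290 and enter no share above. The table also lists 5 tRNA pseudogenes on the arms used, and 0 of them were near a peak of any list.

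Of the 18 clusters of 2 or more tRNA genes near CP190, 11 had every gene within 500 bp of a CP190 peak and 7 had only some. The 3 genes that were near an adult list and no larval list, in 2 clusters, were tRNA:Ala-AGC-2-7 and tRNA:Ala-AGC-2-8 with adult Pita and tRNA:Trp-CCA-2-1 with adult Su(Hw).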
